A study of Mus musculus with 6 samples.

Results

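Steady-state expression, in the absence of any transcription inhibitor, was compared between CNOT3-depleted and control mouse embryonic fibroblasts (MEFs) on 2 of the 6 arrays of the series. The samples were chosen by their labels, CNOT3KD MEFs and Control MEFs at 0 h, with 1 array each. Both cultures were primary fibroblasts from mice homozygous for a floxed CNOT3 allele. The control culture received a mock retrovirus and the CNOT3KD culture a retrovirus that expresses Cre recombinase, which removes the floxed DNA, and both were then selected in puromycin for 2 days. The labels give the control genotype as wild type, and the study's own definition of its control MEFs was used. Because Cre came from a virus, cells that kept the allele can be present, and the sources used here do not give their share. The study concerns the death of cells after loss of CNOT3, and how many cells of the culture were dying when RNA was extracted is unknown here. A lower share of cells of one type and less RNA per cell cannot be told apart in such bulk samples. The other 4 arrays of the series hold the same kinds of culture after 6 or 12 h of actinomycin D (Act. D), which stops transcription, and are used here only for values set beside those at 0 h.

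Of 18193 genes to which a probe set could be assigned singly, 9228 had a signal of at least 200 on at least one of the 2 arrays and are described below. The signal is the MAS5 intensity of Affymetrix arrays, a brightness per probe set on a linear scale, and all ratios are CNOT3KD over control after signals under 20 were set to 20. Of the 9228 genes, 8516 reached 200 on both arrays and 712 on only one of them. A gene that reached 200 only on the array where it was brighter had to differ between the arrays. At the edge of this minimum, Bicra was just included with 200.2 in control and 163 in CNOT3KD MEFs, and Mospd3 was just left out with 186.9 and 199.8. With 1 array a side there is no replicate, so no error and no p-value can be given for any ratio, and a size rule of 1.5-fold takes the place of a test.

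CNOT3 is a subunit of the CCR4-NOT complex, the main deadenylase of animal cells. The complex shortens the poly(A) tails of mRNAs, which is usually the first step of their decay, and it is brought to its targets by RNA-binding proteins and by the microRNA machinery. The steady-state level of an mRNA depends on its synthesis as well as its decay, so ratios at 0 h hold both. Interferon-stimulated, cell cycle and cholesterol synthesis genes were set aside by list, and the classes described here are the others.

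The Cnot3 signal was 436 in control and 239.6 in CNOT3KD MEFs, 1.82-fold lower. A further Cnot3 probe set had 203.6 in control and 226.7 in CNOT3KD MEFs, a log2 ratio of 0.16. Whether either probe set lies in the floxed exons was not analysed here, and one that lies elsewhere would not measure the deletion. Cnot3 was the only one of the 11 measured CCR4-NOT genes past 1.5-fold. Cnot2, the partner of CNOT3 in the complex, had 1545 in control and 2217 in CNOT3KD MEFs, a log2 ratio of 0.52, and the deadenylase Cnot8 had 1387 and 1774, a log2 ratio of 0.35. The deadenylase Cnot6 lay on the other side, with 2960.4 in control and 2203 in CNOT3KD MEFs.

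Over the 9228 genes, 1054 (11.4%) exceeded 1.5-fold upwards in CNOT3KD MEFs and 572 (6.20%) exceeded it downwards. At 2-fold, 287 (3.11%) were higher and 140 (1.52%) lower. Higher genes thus made up 64.8% of those past 1.5-fold. This split depended on the scaling of the arrays: it was 50.3% with the ratios centred on their median, with 774 genes higher and 766 lower, and 77.0% with each array divided by its ribosomal protein signals, with 1452 higher and 434 lower. The median log2 ratio of all genes was 0.08, and the 5th and 95th percentiles were -0.65 and 0.84. The lists set aside held 41 of the higher genes (33 interferon-stimulated and 8 cholesterol synthesis genes) and 42 of the lower genes, all of them cell cycle genes. The remaining 1013 higher and 530 lower genes are the subject of what follows. Of the higher genes, 292 reached 200 only in CNOT3KD MEFs, and of the lower genes, 116 reached it only in control MEFs.

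**Figure D1:**
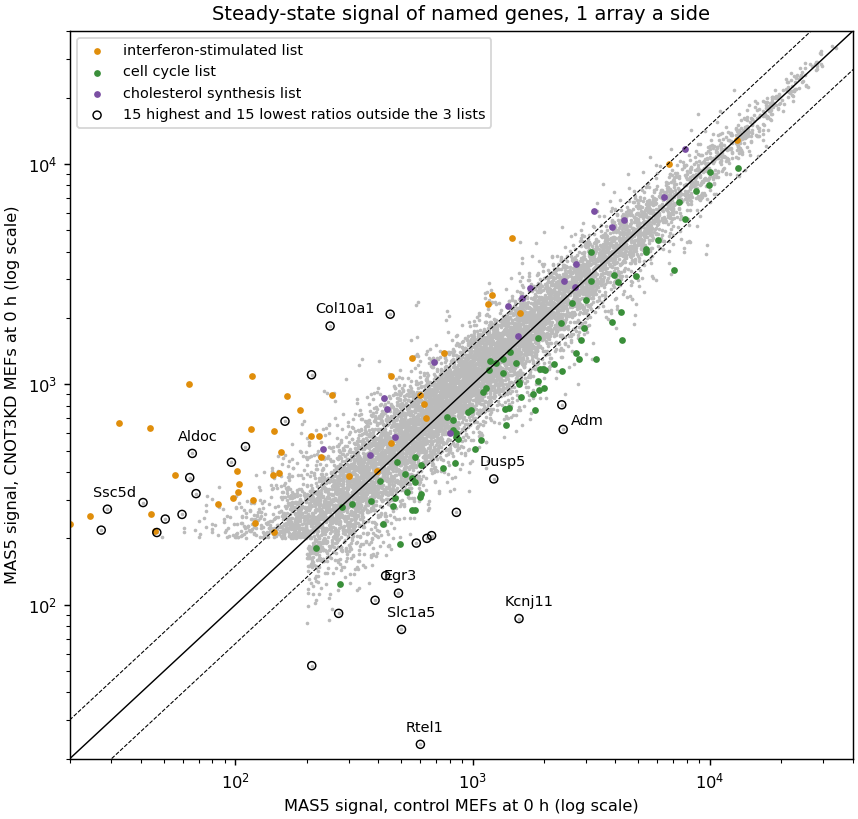
Signal of the 9228 genes in control MEFs (x axis) and CNOT3KD MEFs (y axis) at 0 h, both on log scales. The solid line marks equal signals and the dashed lines a 1.5-fold difference. Colours mark the lists set aside, and rings mark the 15 highest and 15 lowest ratios outside them, 9 of them named. Interferon-stimulated genes lie mostly above the upper dashed line and nearly all cell cycle genes lie below the solid line.

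Agreement between probe sets of the same gene is the only repeat measurement within this pair of arrays. Among 3754 genes with more than 1 probe set past the minimum, the pooled standard deviation of the log2 ratio between probe sets was 0.29. Of the higher genes, 278 had more than 1 such probe set, and in 243 (87.4%) all of them were above 1. Of the lower genes, 239 had more than 1, and in 218 (91.2%) all were below 1. Among all 3754 genes, the probe sets lay on 1 side of 1, above or below, in 2522. In the higher and lower genes the probe set taken for the gene was past 1.5-fold by selection, which raises these shares. All such probe sets were past 1.5-fold in 131 of the higher and 111 of the lower genes. Probe sets of a gene share the RNA sample and the array, so their agreement says nothing of differences between cultures.

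The 15 highest ratios outside the lists set aside belonged to genes of varied function. Col10a1, the collagen of hypertrophic cartilage, had a signal of 251 in control and 1840.0 in CNOT3KD MEFs, 7.34-fold higher. Mmp13, an interstitial collagenase, had 27.2 in control and 218 in CNOT3KD MEFs. Ssc5d, a secreted scavenger receptor protein, had 28.9 and 271, 9.41-fold higher. For Mmp13 and Ssc5d the control signal was near the floor, so the ratio rests on a dim probe set. Aldoc, the brain-type aldolase of glycolysis, had 65.8 in control and 486 in CNOT3KD MEFs, 7.39-fold higher. Dsp encodes desmoplakin, which anchors keratin filaments at desmosomes, and had 96.2 in control and 443 in CNOT3KD MEFs, with a log2 ratio of 2.47 at a further probe set. Pycard, the adaptor that assembles inflammasomes, had 162 and 680.4, 4.20-fold higher. Metabolic enzymes among the 15 highest were Bdh2, a ketone body dehydrogenase (4.84-fold, 50.6 in control), and Gstt2, a glutathione transferase (4.56-fold, 46.6 in control).

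The other members of this group are less well characterized. Haghl, a relative of the glyoxalase gene Hagh, had 449 in control and 2081 in CNOT3KD MEFs. Its other probe sets past the minimum had smaller log2 ratios of 1.05 and 0.84, so the size of the difference depended on the probe set. Flywch2 was 7.13-fold higher (40.8 in control), Mansc1 4.68-fold (68.2 in control) and the hair keratin-associated gene Krtap1-5 4.32-fold (59.5 in control). The unnamed transcripts 1700007K13Rik (5.28-fold) and 6330403K07Rik (4.73-fold) also stood among them. Sema4f, a membrane semaphorin, was 5.88-fold higher at a probe set of a type that can cross-hybridize with related sequences, and its other probe set had a log2 ratio of 0.64 below the signal minimum.

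The 15 lowest ratios were likewise of mixed kind, and the lowest after Rtel1, described further on, was that of Kcnj11. Kcnj11, the pore of ATP-sensitive potassium channels, had 1569 in control and 86.6 in CNOT3KD MEFs, 18.1-fold lower. The other Kcnj11 probe set was near the floor in both cultures, with 27.0 in control and 14.1 in CNOT3KD MEFs, so the ratio rests on 1 probe set. Slc1a5, the glutamine transporter ASCT2, had 501 in control and 77.3 in CNOT3KD MEFs, 6.49-fold lower. Its other probe set had a log2 ratio of -0.41 and stayed below the signal minimum on both arrays. Egr3, an early response transcription factor, had 487 and 113, 4.31-fold lower, while its other probe set was near the floor in both cultures, with 24.7 and 26.7. Dusp5, a nuclear phosphatase of ERK, had 1228 and 372, 3.30-fold lower. Egr3 and Dusp5 are both induced by growth factor signalling. Cxcl5, a neutrophil chemokine, had 642 in control and 200.1 in CNOT3KD MEFs, and Adm, which encodes the vasodilator adrenomedullin, had 2377 and 808. Adm was lower at its other probe set as well, with a log2 ratio of -1.85.

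Other low genes were Sox21 (3.70-fold lower), a transcription factor of neural progenitors, the kinetochore gene Kntc1 (3.25-fold), which the cell cycle list did not hold, and Mid1 (3.04-fold), a microtubule-bound ubiquitin ligase. Ptchd4 (3.26-fold) was lower at both of its probe sets past the minimum, and the ubiquitin ligase G2e3 (3.17-fold) at all 3 of its own. Gfod1 (3.96-fold), Lrrc4c (2.98-fold), which encodes a netrin-G ligand, and Tcl1b3 (3.86-fold) completed the group. The Tcl1b3 probe set is of a type that can cross-hybridize. Rtel1, a DNA helicase of telomeres, had the lowest ratio of all, with 602 in control and 23.3 in CNOT3KD MEFs, and its other probe set past the minimum had a log2 ratio of -0.77. Of the 15 lowest, only Adm, Cxcl5, Dusp5, Kntc1, Ptchd4 and Tcl1b3 reached 200 on both arrays. The others passed only through control MEFs, so their ratios had to lie below 1.

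**Figure D2:**
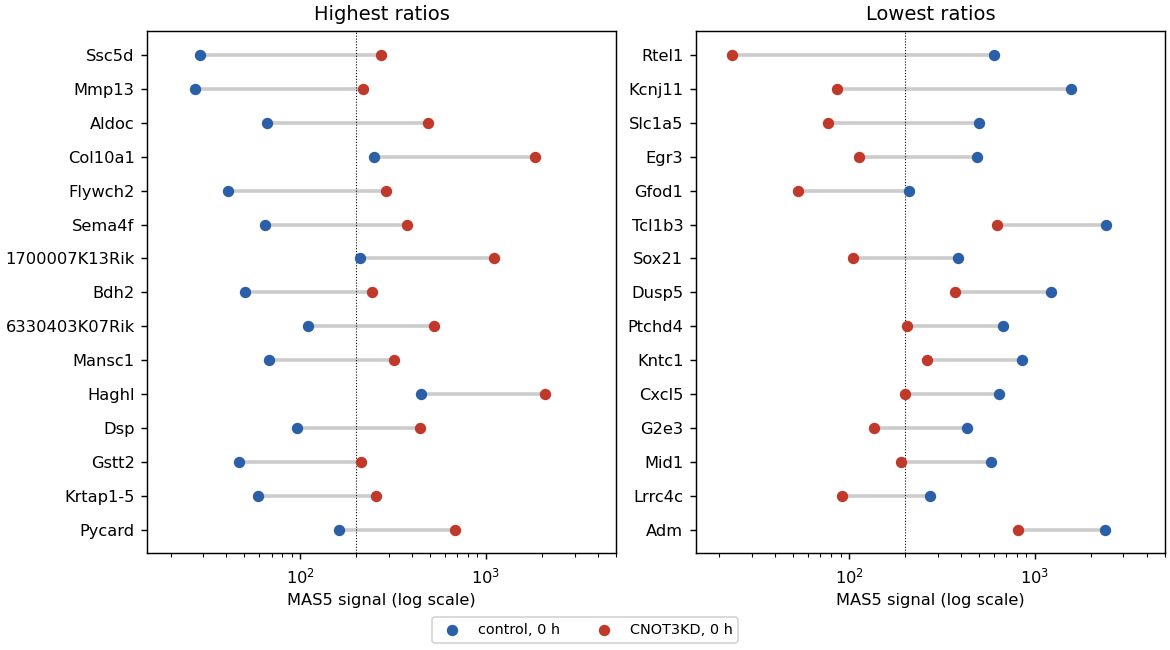
Signals at 0 h (x axis, log scale) of the 15 genes with the highest (left) and the 15 with the lowest (right) ratios outside the lists set aside, in control (blue) and CNOT3KD MEFs (red). The dotted line marks the signal minimum of 200. Col10a1 runs from 251 to 1840.0, and Kcnj11 from 1569 down to 86.6.

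The arrays of cultures treated with Act. D show which of these ratios were met again on other arrays. They hold decay as well as steady state, and the median log2 ratio over all 9228 genes was 0.23 at 6 h and 0.36 at 12 h. Of the 1054 higher genes, 645 (61.2%) were more than 1.5-fold higher at both later times, against 30.9% of all genes. Of the 572 lower genes, 247 (43.2%) were more than 1.5-fold lower at both times, against 9.28% of all genes. Of the 15 highest genes 14, and of the 15 lowest 9, were past 1.5-fold in the same direction at both times. Ssc5d was the exception among the highest: control MEFs had 249 at 6 h and 389 at 12 h and CNOT3KD MEFs 288 and 265, so the low control signal at 0 h was not seen again. Rtel1 behaved alike on the other side, since CNOT3KD MEFs had 654 at 6 h and 354 at 12 h against 583 and 523 in control MEFs. Dusp5 was under 20 in both cultures at both later times and gave no ratio there. Gfod1 had log2 ratios of 1.99 at 6 h and -1.25 at 12 h, Cxcl5 0.36 and 0.86, Adm 1.47 and 1.66, and Lrrc4c -0.71 and -0.49. For Kcnj11 the signal in control MEFs was 1689.6 at 6 h and 1342 at 12 h, and in CNOT3KD MEFs 203 and 446, all lower than in control MEFs at the same time.

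**Figure D3:**
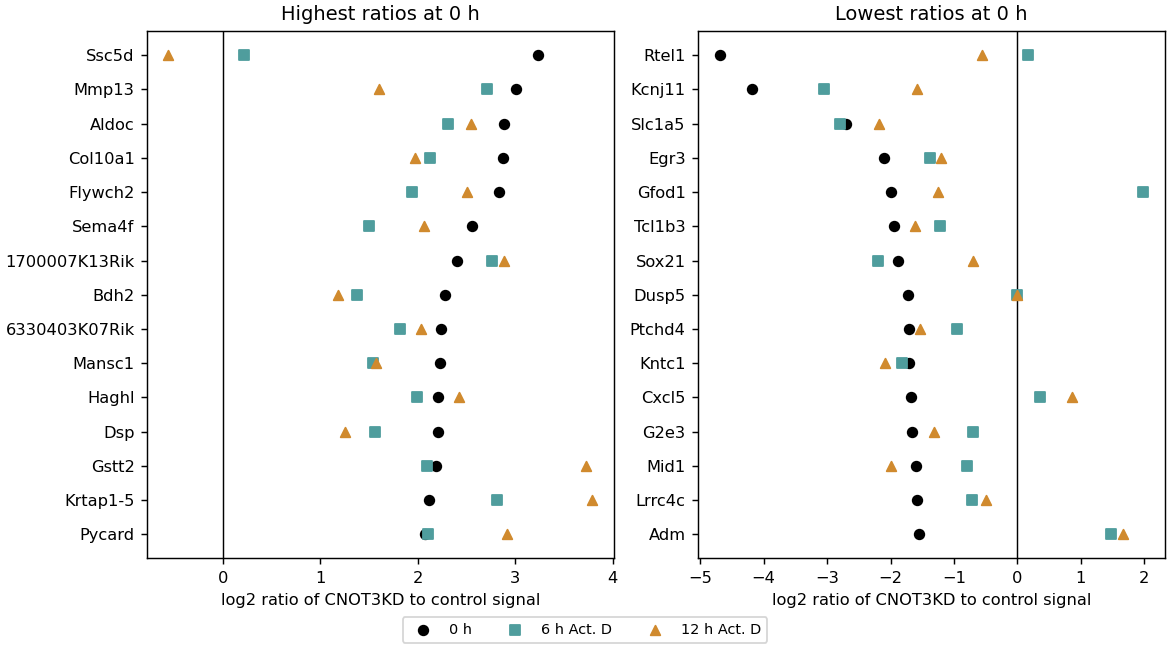
Log2 ratio of CNOT3KD to control signal at 0 h (circles) and after 6 h (squares) and 12 h (triangles) of Act. D for the 15 genes with the highest (left) and the 15 with the lowest (right) ratios at 0 h. Each point is 1 pair of arrays. Of the highest genes, 14 stay above 1.5-fold at both later times, and Ssc5d (0.21 and -0.56) does not. On the right, Adm lies at -1.56 at 0 h and at 1.47 and 1.66 later.

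Gene lists were drawn up by function and are described by how many members passed 1.5-fold in each direction and by their median log2 ratio, to be read against 11.4% higher, 6.20% lower and a median of 0.08 over all genes. Of 35 such lists, the ATF4 and immediate-early lists had the lowest medians and the metalloproteinase and lysosome lists the highest. Where the median was within about the shift that a change of scaling makes, no direction is given for the list. Counts given with both signals at least 200 are to be read against 8.95% higher and 5.35% lower of 8516 genes.

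**Figure D4:**
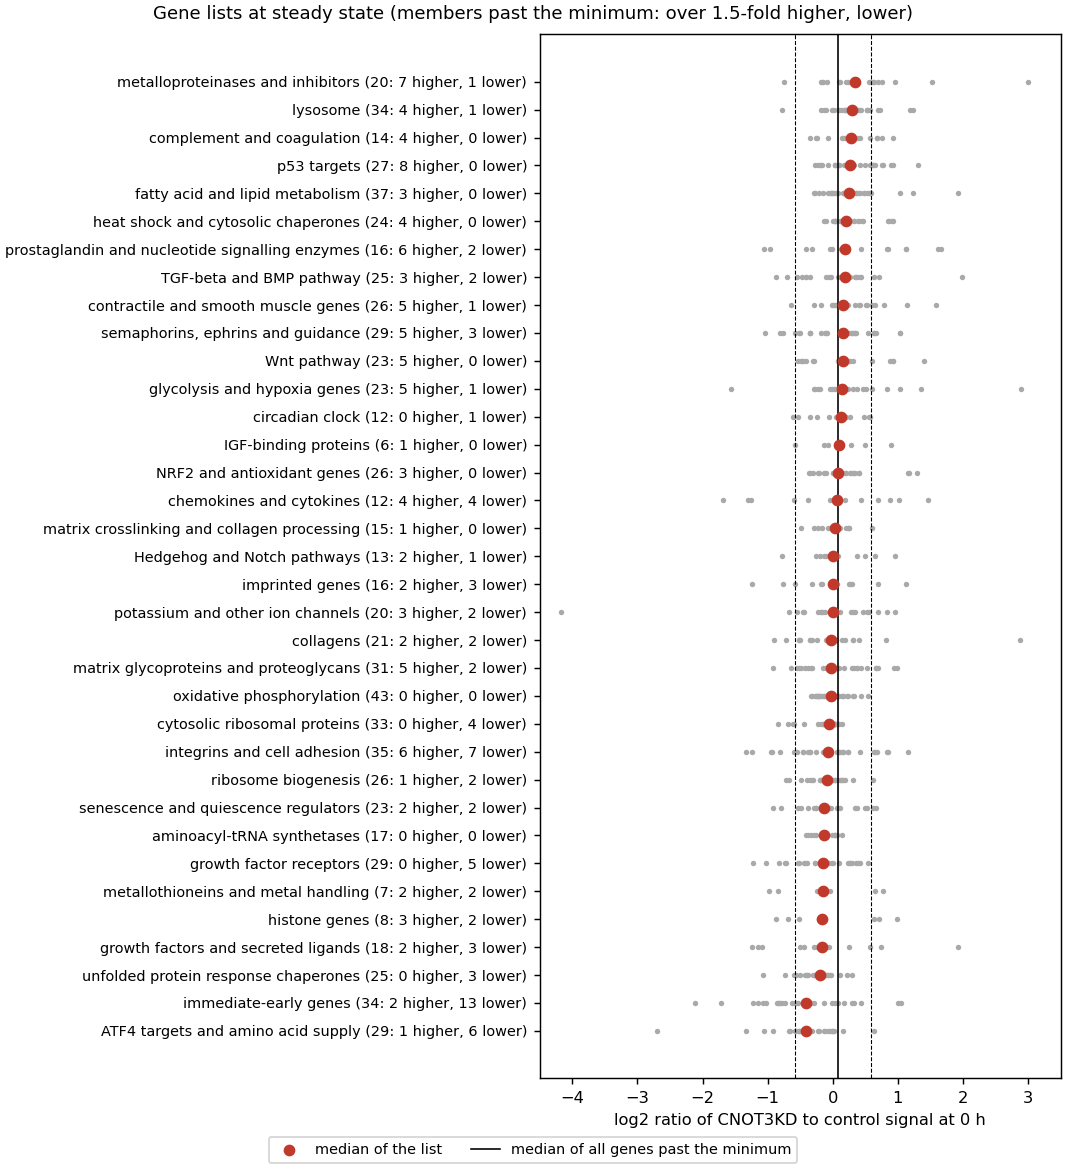
Log2 ratio of CNOT3KD to control signal at 0 h for the members past the minimum (grey) of 35 gene lists and their medians (red), with the number of members past the minimum and of those more than 1.5-fold higher or lower beside each name. The solid line is the median of all genes, 0.08, and the dashed lines mark 1.5-fold. The medians run from -0.41 for the ATF4 list to 0.34 for the metalloproteinases.

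Promoter sequences are shown for genes of the 2 lists with the lowest medians, immediate-early genes and the ATF4 list, and for contractile and aminoacyl-tRNA synthetase genes, because serum response factor is known to act on immediate-early and contractile genes through the CArG box, and ATF4 on genes of amino acid supply and synthetases through the CARE element. RefSeq promoters (GRCm38.p6, 250 bases before to 50 after the gene's start) were found for 30 immediate-early genes, 21 contractile genes, 27 genes of the ATF4 list and 11 aminoacyl-tRNA synthetase genes. They were searched on both strands for the CArG box by its usual consensus and for the CARE core TGATGNAA. Genes with any match were counted, for each motif on its own, whether or not matches overlapped. A CArG box stood in 4 of the 30 immediate-early promoters (13.3%) and 3 of the 21 contractile promoters (14.3%), and in 1.81% of all 27025 promoters. The windows below hold 30 bases, 5′ to 3′ on the strand of the gene, with the first match in capitals. In the Dusp5 window the bases after the capitals also fit the CArG consensus and are left in small letters.
Dusp5, chr19:53529053-53529082, plus strand: ggggaaatacCCATATTTGGccttatatgg
Egr2, chr10:67537484-67537513, plus strand: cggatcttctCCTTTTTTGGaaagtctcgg
Srf, chr17:46556225-46556254, minus strand: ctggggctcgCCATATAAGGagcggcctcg
Zfp36, chr7:28379267-28379296, minus strand: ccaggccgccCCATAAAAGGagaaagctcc
Vcl, chr14:20929161-20929190, plus strand: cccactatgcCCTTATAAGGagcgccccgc
Of these genes, Dusp5 and Egr2 were past 1.5-fold, both lower in CNOT3KD MEFs. Zfp36 had a log2 ratio of -0.42 and Srf, which encodes the factor itself, -0.37. Vcl, of the contractile list, had 0.20. No match was found in the windows of the other immediate-early genes, Egr3 included, which says only that these letters are not in this window.

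The CARE core stood in 8 of the 27 promoters of the ATF4 list (29.6%) and 5 of the 11 synthetase promoters (45.5%), and in 4.51% of all promoters. In the windows below, a match on the strand opposite to the gene reads as its complement.
Asns, chr6:7693214-7693243, minus strand: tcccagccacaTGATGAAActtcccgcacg
Nupr1, chr7:126625562-126625591, minus strand: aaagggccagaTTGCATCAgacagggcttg
Chac1, chr2:119351038-119351067, plus strand: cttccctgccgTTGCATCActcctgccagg
Gars, chr6:55037960-55037989, plus strand: tggctgcgctaTTTCATCAtgcaccgggcg
These genes spread widely in the arrays. Asns had a log2 ratio of -0.66 and Nupr1 -0.58, while Chac1 had -0.08 and Gars 0.03. A match in a promoter is a description of sequence, not a binding site or a cause of a ratio.

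Immediate-early genes were lower as a list. They are switched on within minutes of growth factor signals and include the AP-1 and EGR factors and the feedback inhibitors of the ERK pathway, and many of their mRNAs are short-lived. Of 41 genes on the array, 34 passed the minimum, 13 of them (38.2%) more than 1.5-fold lower and 2 (5.88%) higher, with a median log2 ratio of -0.41. With both signals at least 200 the counts were 11 lower and 1 higher of 31. Egr2 and Egr3 passed only through control MEFs and Gem only through CNOT3KD MEFs. The transcription factors Egr3, Egr1, Egr2, Klf10, Ier2 and Nr4a2 were among the lower genes. Egr1 had 5018 in control and 2786 in CNOT3KD MEFs, and Klf10 978 and 439. The AP-1 gene Jun, with 3528 and 2359, came just short of 1.5-fold, and Fos had 511 and 387. Of the feedback inhibitors of receptor and ERK signalling on the list, Dusp5, Dusp6, Spry1, Spry2, Spred1 and Errfi1 were past 1.5-fold lower, while the phosphatase Dusp1 had a log2 ratio of 0.17. Errfi1, an inhibitor of EGF receptors, had 4818 in control and 2060.3 in CNOT3KD MEFs, and Spry2 had 1480.5 and 726. The 2 higher members were Dusp4, another ERK phosphatase, with 1062 and 2117, and the small GTPase gene Gem, with 188 and 388, so members lay on both sides. Of the 15 members past 1.5-fold, 10 lay on the same side of 1 after both times of Act. D.

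Genes of amino acid supply were lower. ATF4 is the transcription factor of the amino acid response and drives transporters and enzymes of serine, glycine and asparagine synthesis. Of 29 genes past the minimum, 6 (20.7%) were more than 1.5-fold lower and 1 (3.45%) higher, and 25 of the 29 ratios were below 1, with a median log2 ratio of -0.41. Slc1a5 passed only through control MEFs, and with both signals at least 200 the counts were 5 lower and 1 higher of 28. The 3 lowest members were transporters: besides Slc1a5, the leucine transporter subunit Slc7a5 had 1744 in control and 694 in CNOT3KD MEFs and the arginine and lysine transporter Slc7a1 had 3204 and 1536. Slc3a2, the partner chain of Slc7a5, had 2381 and 2424, so the subunits did not differ together, and the other transporters Slc38a1 (-0.41), Slc6a9 (-0.21), Slc38a2 (-0.13) and Slc7a3 (0.16) had log2 ratios within 1.5-fold. Of the enzymes, Psat1 of serine synthesis had 7791 in control and 4144 in CNOT3KD MEFs, and asparagine synthetase, Asns, had 4638 and 2945. Mthfd2 of mitochondrial folate metabolism had 2117 and 1322. Phgdh (log2 ratio -0.52), Psph (-0.47) and Shmt2 (-0.52) of the same pathway lay on the same side within 1.5-fold. Atf4 itself had 6163 and 4468, a log2 ratio of -0.46, and Ddit3, which encodes CHOP, 1369.7 and 1364. The higher member was Ddit4, an inhibitor of mTOR that is also induced by other stresses, with 1126 and 1746. All 17 aminoacyl-tRNA synthetase genes stayed within 1.5-fold, the lowest being Tars with 4023 in control and 3042 in CNOT3KD MEFs.

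The unfolded protein response raises chaperones of the endoplasmic reticulum. Of 25 genes past the minimum 0 were more than 1.5-fold higher and 3 (12%) lower, and the median log2 ratio was -0.19. The 3 were the stress sensor Ern1, with 441 in control and 210.4 in CNOT3KD MEFs, Creld2, with 2589 and 1564, and Sdf2l1, with 1279 and 843. Hspa5, which encodes the chaperone BiP, had 17887 and 17415. Of cytosolic heat shock genes, 4 of 24 (16.7%) were more than 1.5-fold higher and 0 lower, and the median log2 ratio of 0.21 was 0.073 with the median over probe sets, close to that of all genes. The 4 were the small heat shock protein Hspb1, with 8957 in control and 16793 in CNOT3KD MEFs, the co-chaperone Dnajb1, with 1162 and 2198, and the near-identical inducible genes Hspa1a, with 289 and 527, and Hspa1b, with 1725 and 3114, between which probes may not distinguish. The constitutive Hspa8 had 25209 and 27279. A heat shock element was searched on both strands as GAA, TTC and GAA in this order with NN between neighbours. It stood in 3 of 19 promoters of the list (15.8%), those of Hsph1, Hspd1 and Hspe1, and in 0.662% of all promoters. The matches of Hspd1 and Hspe1, genes on opposite strands, overlap in the same stretch of sequence and are not separate. None of the 3 genes passed 1.5-fold.

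Targets of p53, the factor that halts the cell cycle and promotes cell death after damage, were higher in part. Of 27 genes past the minimum, 8 (29.6%) were more than 1.5-fold higher and 0 lower, with a median log2 ratio of 0.27. The death receptor Fas had 198 in control and 492 in CNOT3KD MEFs, 2.48-fold higher. Fas passed only through CNOT3KD MEFs, and with both signals at least 200 the count was 7 higher of 26. The autophagy and cell death gene Trp53inp1 had 3941 and 7491, and the cell cycle inhibitor Cdkn1a 8319.6 and 14216. Mdm2, the ubiquitin ligase that removes p53, had 2376 and 3629.7, and Pmaip1, which encodes the BH3-only protein NOXA, 2298 and 3520.1. Ddit4l, with 709 and 1316 at 0 h, had log2 ratios of -0.14 at 6 h and -1.12 at 12 h of Act. D. Of 23 regulators of senescence and quiescence, 2 were higher and 2 lower. The CDK inhibitor Cdkn2b had 2364 in control and 3764 in CNOT3KD MEFs, and its relative Cdkn2c 930.5 and 490.2, on opposite sides.

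The antioxidant and detoxifying genes included 3 of 26 (11.5%) more than 1.5-fold higher, a share near that of all genes. They were the glutathione enzymes Mgst1, with 2006 in control and 4907 in CNOT3KD MEFs, Gsta4, with 379.7 and 856, and the secreted peroxidase Gpx3, with 282 and 630.4. The usual markers of NRF2 activity stayed within 1.5-fold, with a log2 ratio of 0.40 for Nqo1 and 0.33 for Hmox1. Metallothioneins bind zinc and copper, and Mt1 had 6839.5 in control and 11701 in CNOT3KD MEFs and Mt2 4799 and 7546. Importers of metals lay on the other side. The transferrin receptor gene Tfrc had 3653 and 2028 and the zinc importer Slc39a10 2267 and 1145.

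Core energy and translation genes differed little. None of 43 oxidative phosphorylation genes passed 1.5-fold, and their log2 ratios lay between -0.34 for Ndufa1 and 0.54 for Uqcrc1. Of 33 cytosolic ribosomal protein genes, 4 (12.1%) were lower and 0 higher. Rpl14, with 1081 in control and 603 in CNOT3KD MEFs, and Rpl37, with 4706 and 2929, were the lowest, and many such genes have processed copies whose transcripts can share probes. Of 26 ribosome biogenesis genes, the box C/D snoRNP proteins Nop58, with 4668 and 2835, and Fbl, with 5657 and 3536, were lower, and the RNA polymerase subunit gene Polr1c was higher, with 2369 and 3621. The medians of these 3 lists changed sign with the scaling of the arrays.

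Glycolysis and hypoxia genes included 5 of 23 (21.7%) higher and 1 (4.35%) lower, but 3 of the 5, Aldoc, Slc2a3 and Ankrd37, reached 200 only in CNOT3KD MEFs, and with both signals at least 200 the count was 2 of 19. Aldoc was followed by the glucose transporter Slc2a3, with 166 in control and 424 in CNOT3KD MEFs, and the mitophagy receptor Bnip3, with 1178 and 2423. Pfkl had 233 and 415. The bright enzymes of the pathway did not differ to this extent: Ldha had 14994 and 15205, Pgk1 16802 and 14325, and the hypoxia target Vegfa 819 and 712. The lower member was Adm. Lysosomal genes had a median log2 ratio of 0.30, and 29 of 34 ratios were above 1, although only 4 (11.8%) were past 1.5-fold higher. The collagen-degrading protease Ctsk had 1853 in control and 4362 in CNOT3KD MEFs, and the glycosidase Gla 589.8 and 1343. Ids, a sulfatase, was lower, with 2778 and 1625. In fatty acid and lipid metabolism 3 of 37 (8.11%) were higher and 0 lower. The phosphatidate phosphatase Lpin1 had 341 in control and 1301 in CNOT3KD MEFs, 3.81-fold higher, the fatty acid binding protein Fabp3 1565 and 3215, and the lipoprotein gene Apoe 107 and 251. Apoe passed only through CNOT3KD MEFs, and with both signals at least 200 the count was 2 higher of 36.

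The extracellular matrix that fibroblasts make mostly lay within the size rule, with a few large exceptions. Of 21 collagen genes past the minimum, 17 were within 1.5-fold, among them Col1a2 with 23815 in control and 24404 in CNOT3KD MEFs and Col3a1 with 11084 and 12231. Col10a1 and the anchoring fibril collagen Col7a1, with 679 and 1202, were higher. Col8a1, a short-chain collagen, was lower, with 8274 and 4417, as was the cartilage collagen Col2a1, with 1523 and 930.0. Among 31 matrix glycoproteins and proteoglycans, 5 (16.1%) were higher and 2 (6.45%) lower. The small leucine-rich proteins Ogn, with 4537 in control and 8956 in CNOT3KD MEFs, and Aspn, with 1899 and 3639, were higher, but at 12 h of Act. D their log2 ratios were -0.28 and -0.19. Efemp1, which encodes fibulin-3, was lower, with 6754 and 3564. Of 15 crosslinking and collagen processing genes 1 was higher, the lysyl hydroxylase Plod1, with 594 and 898.

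Metalloproteinases degrade this matrix, and 7 of 20 genes of the list (35%) were higher and 1 (5%) lower, with the highest median of the 35 functional lists, 0.34. This rank depended on the signal minimum. With a larger signal of at least 500 the median was 0.16, below that of the p53 targets, 0.28. After Mmp13 came Mmp11, a stromelysin of remodelling tissue, with 551 in control and 1584 in CNOT3KD MEFs, and the stromelysin Mmp3, with 159 and 309.8. Adamts4 and Adamts5, the aggrecanases, lay on opposite sides, with 208 and 350.0 for Adamts4 and 2005 and 1198 for Adamts5. The gelatinase Mmp2 (4069.7 and 3840.3) and the inhibitor Timp1 (16109.8 and 14490.4) were within 1.5-fold. Only 17 of the 20 genes reached 200 on both arrays, and the others included Mmp13 and Mmp3, which did so only in CNOT3KD MEFs.

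Contractile genes, many of them targets of serum response factor, were higher for 5 of 26 (19.2%) and lower for 1 (3.85%), and with both signals at least 200 for 3 of 24. The actin-binding gene Synpo2 had 133 in control and 399 in CNOT3KD MEFs, and smooth muscle myosin, Myh11, 92 and 203. The matricellular gene Ccn1 had 12628 and 21694, but its 4 probe sets past the minimum disagreed and their median log2 ratio was -0.09. The main markers of the contractile state did not differ to this extent, with 26428 and 28559 for the actin Acta2 and 17580.4 and 18280.0 for Tagln. Ankrd1, a stretch-responsive gene, was lower, with 1841 and 1179.

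Chemokines and cytokines were divided. Of 33 genes on the array 12 passed the minimum, 4 higher and 4 lower, and with both signals at least 200 the counts were 2 and 3 of 9. Ccl7, a monocyte chemokine, had 779 in control and 2144 in CNOT3KD MEFs, 2.75-fold higher. Cxcl12, which retains stem cells and lymphocytes in their niche, had 9634 and 3889.8, and the membrane-bound Cx3cl1 444 and 185. Cxcl12 was lower after Act. D as well, at log2 ratios of -1.93 and -2.27. The interleukin 1 antagonist Il1rn was higher, with 338 and 624.

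Growth factors and their receptors held more lower than higher genes. Of 18 ligands past the minimum 2 were higher, both of which reached 200 only in CNOT3KD MEFs, and 3 (16.7%) lower. The angiogenic ligand Pgf had 79.8 in control and 303 in CNOT3KD MEFs, 3.80-fold higher. The epithelial growth factor Fgf7 had 3018 and 1367, the EGF receptor ligand Hbegf 4895 and 2305, and stem cell factor, Kitl, 1355 and 574, all lower. Of 29 receptors 0 were higher and 5 (17.2%) lower, with a median log2 ratio of -0.15. They were Met, the receptor of hepatocyte growth factor (1064 and 521), Npr3, which clears natriuretic peptides (391.6 and 167), Il6st, the gp130 chain of interleukin 6 receptors (2363 and 1327), Igf1r (1974 and 1193) and Il1r1 (687 and 416). Npr3 passed only through control MEFs, and with both signals at least 200 the count was 4 lower of 26. Of 6 IGF-binding proteins, Igfbp5 was higher, with 2910.0 and 5388.

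In the TGF-beta and BMP list 3 of 25 were higher and 2 lower. Tgfbi, a secreted adhesion protein named for its induction by TGF-beta, had 579.6 in control and 2285 in CNOT3KD MEFs, 3.94-fold higher. The activin antagonist Fst had 5689 and 3094, and the latent TGF-beta binding protein Ltbp1 4341 and 2666. Wnt pathway genes were higher for 5 of 23 (21.7%) and lower for 0. They were the ligands Wnt9a, with 248 in control and 654 in CNOT3KD MEFs, and Wnt2, with 211 and 321, the receptor Fzd2, with 1246 and 2375, its intracellular transducer Dvl2, with 333 and 616, and the secreted Ccn5, with 1612 and 3076. All 5 had ratios above 1 after both times of Act. D as well, where the median log2 ratios over all genes were 0.23 and 0.36. The other Fzd2 probe sets past the minimum had log2 ratios of -0.06 and 0.69 at 0 h. Of 13 Hedgehog and Notch genes, the Hedgehog co-receptor Boc (372 and 724) and the factor Gli2 (349 and 550.2) were higher and the receptor and target gene Ptch1 (699 and 407) lower.

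Integrins and adhesion genes spread in both directions, with 6 of 35 (17.1%) higher and 7 (20%) lower, and with both signals at least 200 the counts were 3 and 6 of 29. The laminin receptor chains Itga3, with 451 in control and 179 in CNOT3KD MEFs, and Itga6, with 2041 and 867, were lower. The collagen receptor chain Itga1 had 132 and 295 and the fibronectin receptor chain Itga5 281 and 449, both higher. The heparan sulfate proteoglycans Sdc4 (4689 and 2431) and Gpc3 (695 and 365) and the neural adhesion molecule Ncam1 (2951 and 1688) were lower. Guidance genes had 5 of 29 (17.2%) higher and 3 (10.3%) lower, but 4 of the 5, Ephb4 among them, reached 200 only in CNOT3KD MEFs, so that with both signals at least 200 the balance turned to 1 higher and 3 lower of 23. The related ligands Slit2, with 3842 in control and 2183 in CNOT3KD MEFs, and Slit3, with 385 and 784, lay on opposite sides. Sema3a had 1578 and 764, and the ephrin receptor Ephb4 167 and 344.

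Of prostaglandin and nucleotide signalling enzymes, 6 of 16 (37.5%) were higher and 2 (12.5%) lower, but 3 of the 6, Hpgd, Rgs5 and Pla1a, reached 200 only in CNOT3KD MEFs, and with both signals at least 200 the counts were 3 and 2 of 13. The regulators of G protein signalling Rgs4, with 405 in control and 1281 in CNOT3KD MEFs, and Rgs5, with 169 and 367, were higher and Rgs16, with 1136 and 548, lower. The inducible cyclooxygenase Ptgs2 had 7781 and 3969, and Hpgd, which inactivates prostaglandins, 88.5 and 271. Complement and coagulation genes were higher for 4 of 14 (28.6%), among them the protease C1s1, with 163 in control and 309 in CNOT3KD MEFs, and the protein C receptor Procr, with 828 and 1394. Only 11 of the 14 reached 200 on both arrays, 2 of them higher.

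In the remaining lists single genes stood out. Of 20 ion channel genes past the minimum 3 were higher and 2 lower. The cation channel Trpv2, with 165 in control and 322 in CNOT3KD MEFs, the water channel Aqp5, with 295 and 528, and the potassium channel subunit Kcnab1, with 973 and 1578, were higher. Besides Kcnj11, the gap junction gene Gjb2 was lower, with 1713 and 1076. Trpv2 passed only through CNOT3KD MEFs and Kcnj11 only through control MEFs. With both signals at least 200 the counts were 2 higher and 1 lower of 15. Abcc8 and Abcc9, the regulatory chains that join Kcnj11 in its channel, were below the signal minimum in both cultures. Of 16 imprinted genes, which are expressed from the allele of one parent, 2 were higher and 3 lower. Of these the membrane protein gene Dlk1 had 1809 and 769, and Mest 663 and 1450.2, again on opposite sides. Clock genes were within 1.5-fold for 11 of 12 at the probe set taken for each gene, the exception being Cry1, with 465 and 305. Dbp, with 261 and 382, had a log2 ratio of 2.07 at its other probe set past the minimum. Of 8 histone genes past the minimum 3 were higher and 2 lower. The linker histone H1f2, with 3344 in control and 6641 in CNOT3KD MEFs, H2aw, with 1159 and 1800.1, and H2bc22, with 178 and 290.2, were higher. H2bc22 passed only through CNOT3KD MEFs. The replacement variant genes H2az1, with 8162 and 4479.6, and H2az2, with 2981 and 1847, were lower.

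Families that share the stem of their symbol gave a view that used no functional list. Their counts, here and below, are to be read against 11.4% higher and 6.20% lower over all genes. Of 110 stems with at least 10 genes past the minimum, the lowest median belonged to Snhg, the host genes of small nucleolar RNAs, whose spliced transcripts do not code for protein and are known substrates of nonsense-mediated decay. Of 13 Snhg genes 6 were more than 1.5-fold lower and 1 higher, 12 ratios were below 1, and the median log2 ratio was -0.58. Snhg1 had 5301 in control and 2621 in CNOT3KD MEFs, Snhg8 3834 and 2101, and Snhg3 1068 and 606. Snhg14, from the imprinted Prader-Willi region, was the higher one, with 181 and 272. At 12 h of Act. D the log2 ratios were -2.31 for Snhg1, -1.59 for Snhg8 and -1.85 for Snhg3. Gas5, a host gene of this kind under another name, had 8451 and 7101 at 0 h.

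Zinc finger genes formed the largest family at the low end. Of 178 Zfp genes past the minimum, 33 were more than 1.5-fold lower and 1 higher, with a median of -0.18. Zfp367 had 1136 in control and 418 in CNOT3KD MEFs, and the higher gene Zfp61 172 and 282. The related Zbtb factors had 4 of 22 lower and 0 higher, among them Zbtb18, with 781 and 361. The stems with the highest medians were of many kinds: Akap (0.42), Nudt (0.40), Commd (0.38), Atg (0.36), Ccdc (0.36, with 15 of 49 genes higher) and Mfsd came before Vps, followed by Aldh, Abhd and Pex. Of 31 Vps genes, which sort proteins to lysosomes, 6 were higher and 0 lower, with a median of 0.35, and Vps41 had 1591 in control and 2633 in CNOT3KD MEFs. Of 16 Atg genes of autophagy 3 were higher and all 16 ratios were above 1, with a median of 0.36. Atg14 had 229 and 374 and Atg7 172 and 324. Atg7 passed the minimum only through CNOT3KD MEFs, so its ratio had to lie above 1. Of 13 Pex genes, needed to build peroxisomes, 6 were higher and 0 lower. Pex14 had 572 in control and 1184 in CNOT3KD MEFs, Pex16 189.7 and 492.8, and Pex13 1398 and 2236. Nudt hydrolases were higher for 5 of 17, led by Nudt22, with 268 and 654, and lower for 0. Pex16, Zfp61 and Snhg14 likewise passed only through CNOT3KD MEFs. The families were not counted anew with both signals past the minimum, so the part of such members in these counts was not tested. The stems are those with the most extreme medians and were chosen by these ratios, so their counts are descriptions.

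**Figure D5:**
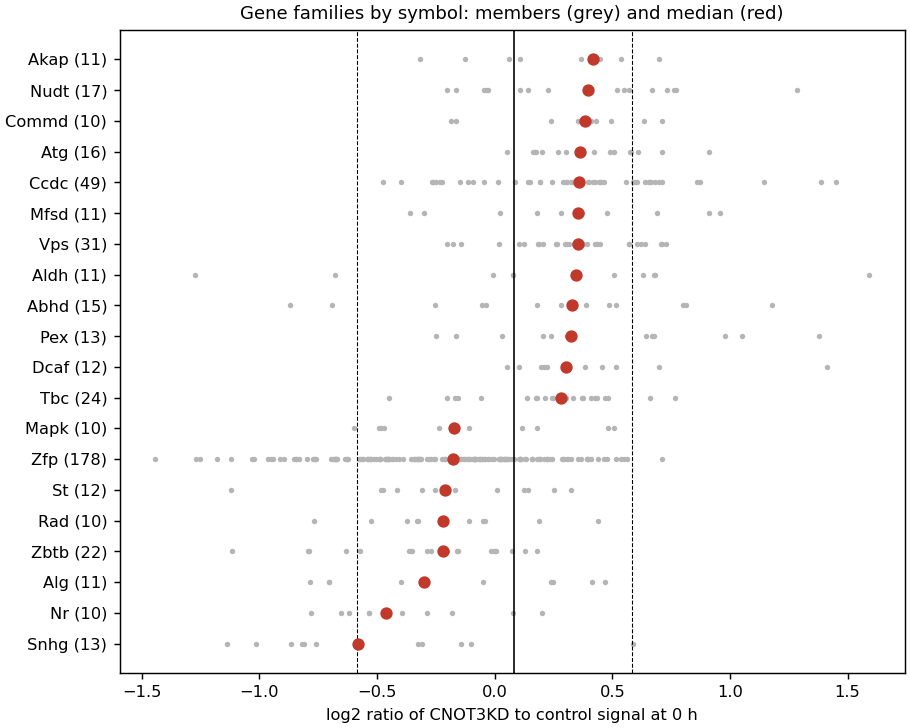
Log2 ratio of CNOT3KD to control signal at 0 h for members past the minimum (grey) of gene families defined by symbol stem, with their medians (red) and, in parentheses, the number of members. The 12 stems with the highest and the 8 with the lowest medians of 110 are shown. The solid line is the median of all genes, 0.08, and the dashed lines mark 1.5-fold. Snhg lies lowest at -0.58 and Akap highest at 0.42.

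Markers of cell types were used to check the label. Marker counts are likewise to be read against 11.4% higher and 6.20% lower over all genes. Of 20 fibroblast markers 19 passed the minimum, with a summed signal of 187619 in control and 204090.0 in CNOT3KD MEFs and a median log2 ratio of 0.12, and Vim had 29519 and 32667. Macrophage and leukocyte markers passed for 11 of 28, and the median log2 ratio was 0.50, with 3 more than 1.5-fold higher. Only 5 of the 11 reached 200 on both arrays, and 0 of these 5 were more than 1.5-fold higher, with a median log2 ratio of 0.46. The other 6, among them Cd68 and Tyrobp, passed only through CNOT3KD MEFs, so their ratios had to lie above 1. Cd68 had 128 in control and 265 in CNOT3KD MEFs, Tyrobp 134 and 257, and Lyz2 1157 and 1728. The summed signal of the 28 was 7146 in control and 9891 in CNOT3KD MEFs. The leukocyte marker Ptprc and the myeloid factor Spi1 were below the minimum in both. The part of such cells in the ratios of Ctsk, Apoe, Pycard or other genes that macrophages also express was not tested.

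Epithelial markers passed for 6 of 34, with a summed signal of 5715 in control and 8091 in CNOT3KD MEFs. Besides Dsp, the simple keratins Krt18, with 419 and 862, and Krt19, with 495 and 1157, were higher, while Epcam, Cdh1 and Trp63 were below the minimum in both. Of 17 cartilage and bone markers 3 passed. Col10a1 and Sox9 (271 and 524) were higher and Col2a1 lower, and Acan, Ihh and Sp7 were below the minimum. Of 21 sarcomere and myogenic markers 2 passed, the alpha-actins Acta1, with 3337 and 6105, and Actc1, with 91.8 and 253, and Myod1, Myog and Ckm were below the minimum. Endothelial markers passed for 3 of 18, where Eng, with 235 and 514, and Egfl7, with 138 and 223, were higher and Pecam1 and Cdh5 were below the minimum. Dsp, Actc1 and Egfl7 passed only through CNOT3KD MEFs, so their ratios had to lie above 1. With both signals past the minimum, 2 of 5 epithelial, 1 of 1 sarcomere and 1 of 2 endothelial markers were higher. The endothelial median log2 ratio was 0.69. With the brightest probe set of each gene at 0 h it was 0.05, with 1 of 3 higher. Fat cell markers passed for 3 of 12 with none past 1.5-fold, neural and glial markers for 6 of 20 with 2 higher and 2 lower, and erythroid markers for 0 of 10.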

How the data were processed

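Total RNA of the 6 cultures was hybridized by the authors to Affymetrix mouse genome arrays, 1 array per condition. As intensity values the authors deposited linear MAS5 signals, 1 per probe set, with trimmed means of 494 to 497 over the arrays (2% of probe sets trimmed at each end). The sources used here do not give the MAS5 version or scaling target, and no probe-level data were used. The median signal was 77.4 on the control and 72.8 on the CNOT3KD array at 0 h. The number of arrays limits the precision, since spread between cultures is not measured.

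The platform annotation lists 1 gene for 34945 of 45037 probe sets, several for 932 and none for the other 9160. A RefSeq gene list (GRCm38.p6) held the identifiers of 34741 probe sets, and 0 symbols were updated from it. Of several probe sets for a gene, the one whose mean log2 signal across all 6 arrays was highest was taken. The floor was 20, the larger signal at 0 h had to reach 200, and no further scaling was applied. With 1 array a side no test was run, and 1.5-fold is the study's own size rule. The counting step was tested on simulated data.

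The genes named are Cnot3, the 15 highest and 15 lowest ratios outside the 3 lists set aside, and in each of 35 lists the 3 members with the largest log2 ratios in size, 127 genes in all. All other genes named, list and family members included, were picked with their values in view. The comparison, its members and all lists were chosen with earlier results of these data known. Alternatives were other floors, minima, scalings and choices of probe set. Some genes, Cnot1 and Gapdh among them, were not analysed here. Python 3.11.15, pandas 2.3.3, numpy 2.4.6 and matplotlib 3.10.9 were used.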

Additional observations from a re-analysis of the deposited data

Results flagged for a closer look

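The ratio of CNOT3KD to control signal was on opposite sides of 1, past 1.5-fold each time, at 0 h and after both times of Act. D for 3 genes of those named. The difference between times was not tested, with 1 array per condition. For Adm, the log2 ratio was -1.56 at 0 h (signals of 2377 in control and 808 in CNOT3KD MEFs), 1.47 at 6 h (285 and 792) and 1.66 at 12 h (246 and 778). For Errfi1, it was -1.23 at 0 h (4818 and 2060), 0.75 at 6 h (289.5 and 488) and 0.88 at 12 h (292 and 538). For Cry1, it was -0.61 at 0 h (465 and 305), 0.99 at 6 h (172 and 343) and 2.36 at 12 h (59.2 and 304).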

How the results depend on the processing

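Counts over all genes, counts and medians of lists and ratios of named genes were recomputed under 11 alternatives, and the symbol families, the values after Act. D, the agreement between probe sets and the promoter matches were not. Of 517 medians of lists, 500 moved by less than 0.25 on the log2 scale, a rule that lets medians near 0 change sign. Of 1319 ratios of named genes, 1303 moved by less than the spread between probe sets. A changed signal minimum cannot move the ratio of a gene, so part of this agreement was fixed in advance. Floors of 1 and 50 left all counts over all genes as they were. This was fixed in advance, because the larger signal had to reach 200. The count of higher genes was 671 with a larger signal of at least 500, and without a signal minimum 2478 genes were higher and 1759 lower. The median of the guidance list was -0.095, from 0.16, with both signals at least 200. With a larger signal of at least 100 more markers passed, and the medians were -0.11 for sarcomere markers, from 1.17, and -0.19 for neural markers, from 0.30. The ratio of Ccn1 became -0.094, from 0.78, as the median over its probe sets. Median ratios of several lists near 0, such as collagens, oxidative phosphorylation and ribosomal proteins, changed sign with the scaling. No paired analysis was possible because each condition has 1 array, and no replicate could be left out.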
